A study of Mus musculus with 34 samples.

Results

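The IL-12 family and other cytokines that dendritic cells (DCs) make were followed across mouse spleen DCs as 10 genes. They are Il12a, Il12b, Il23a, Il27, Ebi3, Il15, Il10, Il6, Il1b and Tnf, chosen by name from 22180 genes with a probe set of their own. A probe set was taken where its annotation named exactly 1 of these symbols, and of the 2 probe sets of Ebi3 that whose mean over the arrays was higher was used. The arrays were hybridised with RNA of DCs freshly sorted by FACS from spleens of C57BL/6 mice.

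Sorted CD8+ DCs and sorted CD8- DCs were each profiled on 4 Mst1/2-KO arrays (genotype label Mst1/2-/-) and 4 wild-type (WT) arrays, treated here as 1 experiment label. Total DCs were profiled on 3 Mst1/2-KO and 4 WT arrays, treated as another. The sample titles name an experiment only for the arrays of experiments 1 and 2. Experiment 1 held 3 arrays labelled Rag1-KO p38-KO (Rag1-/-/p38-/-) and 4 Rag1-KO arrays (Rag1-/-), all stimulated with anti-CD40. Experiment 2 held 2 Rag1-KO arrays and 1 WT array stimulated with anti-CD40, beside a single Rag1-KO array that was non-stimulated. The labels give no stimulation for the Mst1/2-KO series, and they give no age, anti-CD40 dose or time. They do not say in which cells Mst1, Mst2 or p38 were deleted, which p38 gene was meant, or whether replicate arrays stand for separate mice. The p-values therefore measure only the spread between these arrays, which may be technical.

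IL-12 is a heterodimer of the subunits p35, encoded by Il12a, and p40, encoded by Il12b, and DCs use it to drive interferon-gamma production by T cells and NK cells. The p40 subunit also pairs with p19, encoded by Il23a, to form IL-23, while p28, encoded by Il27, pairs with the Ebi3 protein to form IL-27. CD8+ DCs of mouse spleen are known as cross-presenting cells and as a major source of IL-12. CD40 on DCs receives a signal from helper T cells that raises cytokine production, and p38 is a stress-activated kinase in that response. Mst1 and Mst2 are the kinases of the Hippo pathway.

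The promoters of Il12b and Tnf are shown because these are the members that passed the test between genotypes, and that of Il6 because its difference was the largest in size in experiment 1. Each is the 250 bases before the gene's start in RefSeq on GRCm38.p6, written 5′ to 3′ on the gene's own strand. They lie at chr11:44399813-44400062 on the plus strand (Il12b), chr17:35202008-35202257 on the minus strand (Tnf) and chr5:30012864-30013113 on the plus strand (Il6). Capitals mark every match, on either strand, to 5 motifs. These were the NF-kB motif by its name, AP-1 (TGANTCA), C/EBP (TTNNGNAA), PU.1 (GAGGAA) and the TATA box (TATAAA), and no marked matches of different motifs overlap in these windows.
Il12b: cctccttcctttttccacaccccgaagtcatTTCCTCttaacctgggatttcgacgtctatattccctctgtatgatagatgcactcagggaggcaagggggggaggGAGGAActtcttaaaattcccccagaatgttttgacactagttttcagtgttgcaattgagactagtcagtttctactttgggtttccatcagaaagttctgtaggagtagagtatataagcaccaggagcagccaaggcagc
Tnf: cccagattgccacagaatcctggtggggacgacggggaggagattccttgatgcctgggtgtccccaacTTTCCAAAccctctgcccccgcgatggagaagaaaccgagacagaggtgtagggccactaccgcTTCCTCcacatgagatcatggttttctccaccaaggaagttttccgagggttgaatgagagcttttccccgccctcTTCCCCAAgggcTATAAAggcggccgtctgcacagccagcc
Il6: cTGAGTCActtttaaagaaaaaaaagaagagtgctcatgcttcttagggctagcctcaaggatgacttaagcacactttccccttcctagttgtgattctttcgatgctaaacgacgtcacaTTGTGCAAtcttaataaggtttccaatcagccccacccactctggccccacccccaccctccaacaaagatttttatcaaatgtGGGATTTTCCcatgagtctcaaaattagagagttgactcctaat

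The Il12b window holds 2 PU.1 matches, at positions -219 to -214 and -143 to -138 from the start. The Tnf window holds 2 C/EBP matches, 1 PU.1 match and 1 TATA box, and the Il6 window holds 1 AP-1, 1 C/EBP and 1 NF-kB match, the last at -44 to -35. Over 32851 RefSeq windows of the same length, 23.3% hold a PU.1 match, 36.8% a C/EBP match, 12.4% a TATA box, 6.75% an AP-1 match and 5.93% an NF-kB match. Such matches describe the letters of the window and do not show binding. The table held windows for 6 of the 10 members, and Il23a, Il27, Il15 and Il10 had none.

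Values below are log2 signals, differences between groups are on that log2 scale (± SE for a change, ± SD for a group mean), and called means a limma p under 0.05 after Benjamini-Hochberg adjustment over all 22180 genes. Levels are set side by side only within an experiment label. The DC markers Flt3, Itgax and Zbtb46 averaged 9.13 to 9.59 on every array. The 6 CD8+ DC markers averaged 11.23 to 11.40 on CD8+ arrays and 7.70 to 8.76 on CD8- arrays, and the 6 CD8- DC markers averaged 5.49 to 6.07 on CD8+ arrays and 8.63 to 9.64 on CD8- arrays. Stk4, the gene of Mst1, was lower in Mst1/2-KO arrays by 0.86 ± 0.10 in CD8+ DCs (adjusted p = 1.66e-04), by 0.77 ± 0.10 in CD8- DCs and by 1.09 ± 0.09 in total DCs. Stk3, the gene of Mst2, and Rag1 are not analysed here.

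Among the 10 cytokine genes, Il12b fell in Mst1/2-KO CD8+ DCs and Tnf fell in Mst1/2-KO CD8- DCs. No member was called higher in either subset. Il12b read 8.28, 7.94, 7.76 and 7.81 on the 4 Mst1/2-KO CD8+ arrays, against 10.40, 9.40, 9.50 and 9.72 on the 4 WT CD8+ arrays. Every Mst1/2-KO array lay below every WT array, and the closest pair was still more than a log2 unit apart. The change was -1.81 ± 0.23, or 3.51-fold lower (adjusted p = 2.58e-04, limma).

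Tnf, the gene of the inflammatory cytokine TNF, read 9.49, 9.32, 9.21 and 8.69 on the Mst1/2-KO CD8+ arrays, against 9.85, 10.03, 9.74 and 9.81 on the WT CD8+ arrays. These groups did not overlap either. The change of -0.68 ± 0.17 missed the threshold (adjusted p = 0.082, limma). It passed in only 2 of 25 alternatives, which ran from -0.79 to -0.52 with limma adjusted p from 0.0326 to 0.252. In 1 of these 2, Mst1/2-KO CD8- replicate 2, which shares the estimate of the spread, was left out (adjusted p = 0.0439). The other was the fit with the replicate number as a block (adjusted p = 0.0326, limma), although these numbers did not pair arrays of different genotypes. Il10, the gene of an inhibitory cytokine, read 4.40, 4.35, 4.27 and 4.03 on the Mst1/2-KO CD8+ arrays, against 4.68, 4.62, 4.44 and 4.55 on the WT CD8+ arrays. These groups also lay apart, with a change of -0.31 ± 0.14 (adjusted p = 0.416, limma).

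In CD8+ DCs 1 of 10 members was called, against 0.888% of all genes. The groups of 3 members did not overlap, all 3 of them lower in Mst1/2-KO, against 6.33% of all genes that lay apart and 3.03% that lay apart and lower. The median change of the members was -0.12, with 6 below 0, and the median of all genes was 0.005. The 6 CD8+ DC markers averaged 11.26 to 11.40 on the Mst1/2-KO CD8+ arrays and 11.23 to 11.30 on the WT CD8+ arrays, and 0 of the 6 were called by limma or had an unadjusted p under 0.05. The 6 CD8- DC markers averaged 5.49 to 5.66 on Mst1/2-KO and 5.64 to 6.07 on WT CD8+ arrays, with 5 of 6 below 0 (median -0.39), 4 of 6 at an unadjusted p under 0.05, and 1 called higher and 0 lower (limma). The mean of the Y-linked genes Eif2s3y, Kdm5d and Uty was 4.18 to 5.03 on Mst1/2-KO and 4.92 to 5.33 on WT CD8+ arrays, and its part in these results was not tested. With bulk samples, fewer cells that make a cytokine and less RNA per cell cannot be told apart.

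In CD8- DCs, Tnf read 8.85, 9.59, 9.12 and 8.97 on the Mst1/2-KO arrays, against 10.25, 10.32, 9.77 and 10.08 on the WT arrays. The groups did not overlap, although Mst1/2-KO replicate 2 came near the lowest WT array. The change was -0.97 ± 0.17, or 1.96-fold lower (adjusted p = 0.00214, limma). Il12b read 7.01, 7.06, 7.11 and 6.23 on the Mst1/2-KO CD8- arrays, against 7.10, 7.70, 7.31 and 6.98 on the WT CD8- arrays. Here the groups overlapped, and the change of -0.42 ± 0.23 did not pass the test (adjusted p = 0.352, limma).

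Il15, a cytokine that sustains NK cells and memory CD8 T cells, read 5.67, 5.62, 5.84 and 5.86 on the Mst1/2-KO CD8- arrays, against 6.22, 5.80, 6.35 and 6.16 on the WT CD8- arrays. A single WT array, replicate 2, fell within the Mst1/2-KO range. The change was -0.39 ± 0.15 (adjusted p = 0.175, limma). In CD8- DCs 1 of 10 members was called, against 6.68% of all genes. The groups of 1 member, Tnf, lay apart, against 12% of all genes.

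Markers of other cells also moved in CD8- DCs. The 5 plasmacytoid DC markers averaged 8.68 to 9.10 on the Mst1/2-KO arrays and 7.33 to 8.02 on the WT arrays, with 4 of 5 called higher and 0 called lower. The CD8+ DC markers averaged 8.27 to 8.76 on Mst1/2-KO and 7.70 to 8.35 on WT arrays (4 of 6 called higher). The CD8- DC markers averaged 8.63 to 8.999 on Mst1/2-KO and 9.47 to 9.64 on WT arrays (3 of 6 called lower, 1 called higher). Of the 5 measured B cell markers 4 were below 0 and 2 were called lower. The Y-linked mean was 4.23 to 4.96 on Mst1/2-KO and 5.13 to 5.37 on WT arrays. The part of these markers in the lower Tnf was not tested.

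The change of Il12b in CD8+ DCs exceeded that in CD8- DCs by -1.39 ± 0.32, which narrowly missed the threshold (adjusted p = 0.0594, limma), and 0 of 10 members were called for this difference, against 0.559% of all genes. At an unadjusted p under 0.05 it was 1 member, Il12b, against 9.15% of all genes. Without Mst1/2-KO CD8- replicate 4, whose Il12b of 6.23 was the lowest of its group, the difference was -1.60 ± 0.28 and passed (adjusted p = 0.0197, limma). It passed in only 2 of 24 alternatives, which ran from -1.60 to -1.17 with limma adjusted p from 0.0197 to 0.158. For Tnf the changes of the subsets differed by 0.29, with a 95% confidence interval from -0.23 to 0.81, so an unequal change was neither called nor bounded near 0. For Il15 the difference of the changes was 0.40 ± 0.22 (adjusted p = 0.626, limma).

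**Figure D1:**
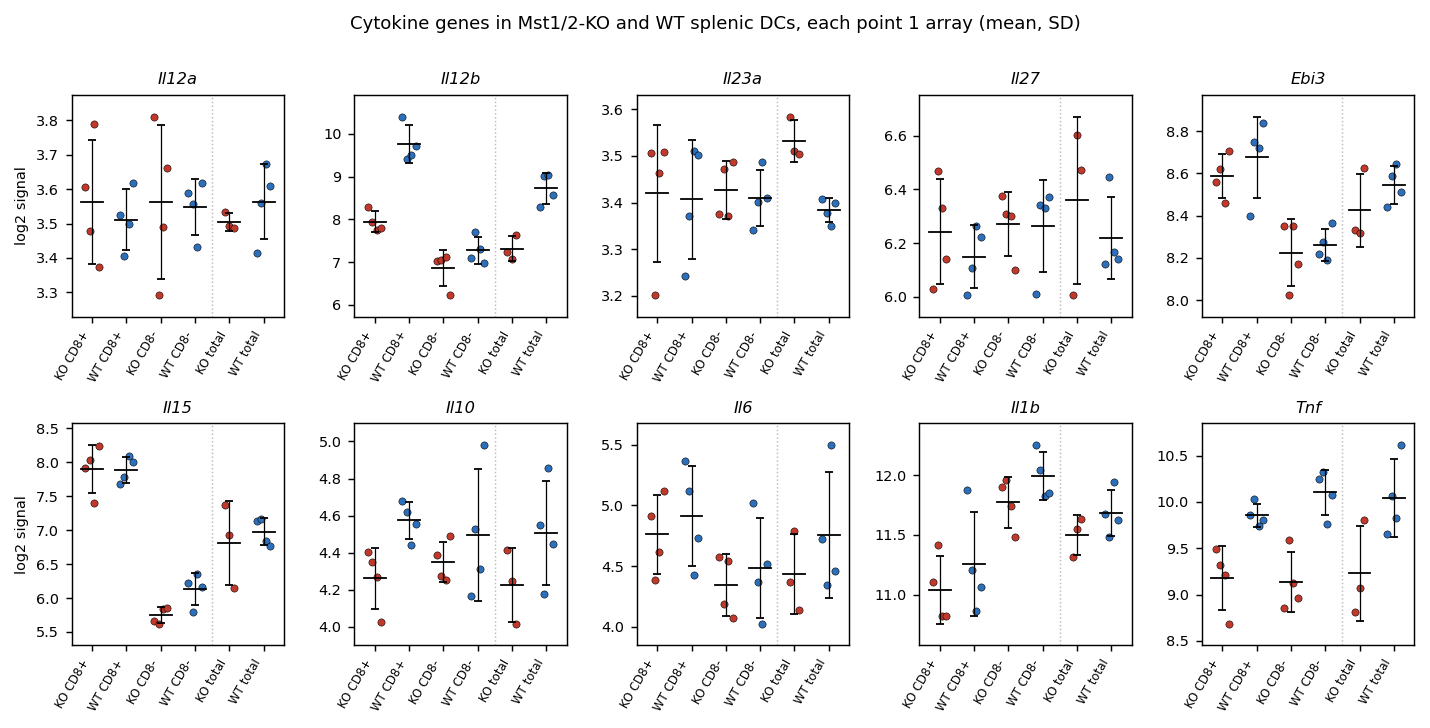
Log2 signal of the 10 cytokine genes (vertical axes) on each array of Mst1/2-KO (red) and WT (blue) CD8+ DCs, CD8- DCs and total DCs, with the group mean as a line and the SD as a bar. The dotted line parts the experiment labels, whose levels are not comparable. Il12b is the gene in which the Mst1/2-KO CD8+ arrays (7.76 to 8.28) lie farthest below the WT CD8+ arrays (9.40 to 10.40).

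In total DCs Il12b was again the member called. It read 7.24, 7.06 and 7.64 on the Mst1/2-KO arrays, against 8.29, 9.01, 9.03 and 8.57 on the WT arrays. The groups did not overlap, and the change was -1.41 ± 0.20, or 2.66-fold lower (adjusted p = 0.0159, limma). The call was lost without Mst1/2-KO total replicate 1 (adjusted p = 0.0843) or replicate 2 (adjusted p = 0.0911), while the change stayed at -1.28 or below in each of the 7 fits that left out an array. Tnf read 8.81, 9.07 and 9.80 on the Mst1/2-KO total arrays, against 9.66, 10.07, 9.83 and 10.62 on the WT arrays. Mst1/2-KO replicate 3 reached into the WT range, and the change of -0.81 ± 0.26 was not called (adjusted p = 0.208, limma).

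Of the 10 members 1 was called in total DCs, against 0.848% of all genes. The groups of 2 members lay apart, Il12b lower and Il23a higher, against 13.8% of all genes. Il23a read 3.58, 3.51 and 3.50 on Mst1/2-KO and 3.41, 3.38, 3.35 and 3.40 on WT arrays, below the median probe set of each array. The CD8+ DC markers averaged 9.95 to 10.05 on the Mst1/2-KO total arrays and 9.38 to 9.88 on the WT total arrays, with 0 of 6 called and 5 of 6 at an unadjusted p under 0.05 (limma). The CD8- DC markers averaged 6.71 to 7.41 on Mst1/2-KO and 7.64 to 8.08 on WT total arrays, with 5 of 6 below 0 (median -0.72), 4 of 6 at an unadjusted p under 0.05 and 1 called lower. The 5 measured B cell markers averaged 4.60 to 4.86 on Mst1/2-KO and 4.97 to 5.37 on WT total arrays, with 0 called by limma and 2 at an unadjusted p under 0.05, and 1 of 7 macrophage and monocyte markers was called lower. The T cell markers averaged 4.54 to 4.93 on Mst1/2-KO total arrays, and on WT total arrays 6.31 on replicate 1 and 3.93 to 4.36 on the others. That WT array had the lowest Il12b of its group, and without it the Il12b change was -1.55 ± 0.18 (adjusted p = 0.0123, limma). The part of these markers in the Il12b change was not tested.

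**Figure D2:**
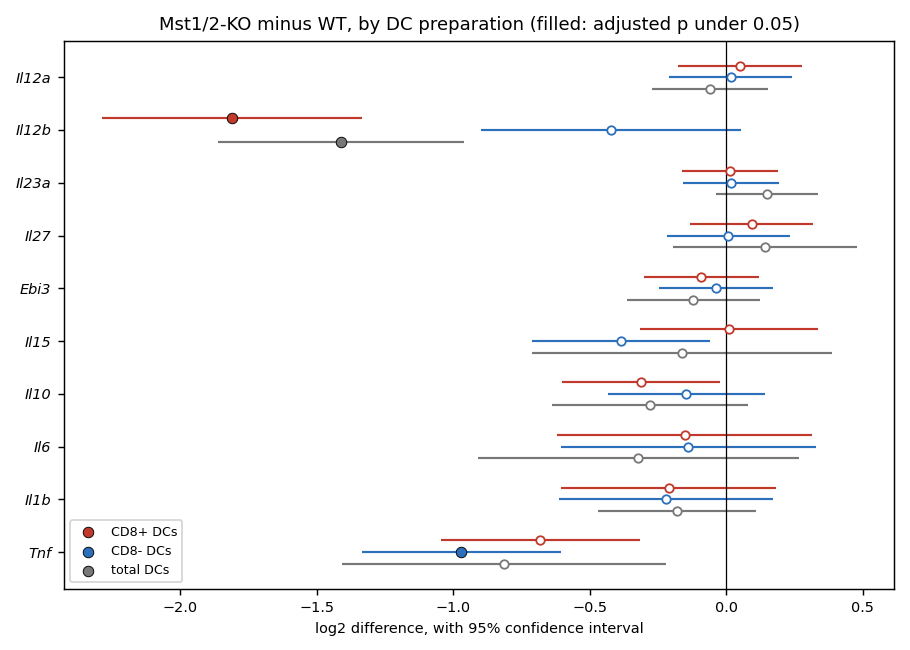
Log2 difference, Mst1/2-KO minus WT, of each cytokine gene with its 95% confidence interval in CD8+ DCs (red), CD8- DCs (blue) and total DCs (grey), where filled points mark an adjusted p under 0.05. Il12b is filled in CD8+ DCs (-1.81) and total DCs (-1.41), and Tnf in CD8- DCs (-0.97), with open Tnf points at -0.68 and -0.81.

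The other members showed no called difference between genotypes in these preparations. Il12a and Il23a stayed below the array's median probe set on all 34 arrays, between 3.13 and 4.12 for Il12a and between 3.17 and 3.58 for Il23a, so a change in either may lie under what these probe sets can show. Il10 lay below that median on 6 of the 34 arrays and Il6 on 5. Il27 averaged 6.24 ± 0.20 on Mst1/2-KO and 6.15 ± 0.12 on WT CD8+ arrays, and 6.27 ± 0.12 on Mst1/2-KO and 6.26 ± 0.17 on WT CD8- arrays. Ebi3 averaged 8.59 ± 0.10 on Mst1/2-KO and 8.68 ± 0.19 on WT CD8+ arrays. Il6, the gene of a cytokine that acts on the liver and on T and B cells, averaged 4.76 ± 0.32 on Mst1/2-KO and 4.91 ± 0.42 on WT CD8+ arrays. Il1b, the precursor of IL-1 beta, averaged 11.04 ± 0.28 on Mst1/2-KO and 11.25 ± 0.43 on WT CD8+ arrays. In total DCs the groups of Il12a, Il27, Ebi3, Il15, Il10, Il6 and Il1b overlapped, with changes from -0.32 (Il6) to 0.14 (Il27).

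Between the subsets, Il12b, Il15 and Ebi3 were higher and Il1b was lower in CD8+ DCs than in CD8- DCs, in both genotypes. Of the 10 members 4 were called in WT mice, against 21% of all genes, and 4 in Mst1/2-KO mice, against 19.2% of all genes. From the values above, the Il12b levels of the sorted groups run from WT CD8+ DCs through Mst1/2-KO CD8+ DCs and WT CD8- DCs to Mst1/2-KO CD8- DCs. The lowest Mst1/2-KO CD8+ array, at 7.76, stood just above the highest WT CD8- array, at 7.70, and the last pair in that order overlapped. The step from CD8- to CD8+ DCs was 1.10 ± 0.23 in Mst1/2-KO mice (adjusted p = 0.0016, limma) and 2.48 ± 0.23 in WT mice (adjusted p = 1.70e-07, limma).

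Il15 read 7.92, 8.04, 7.40 and 8.24 on CD8+ arrays and 5.67, 5.62, 5.84 and 5.86 on CD8- arrays of Mst1/2-KO mice. In WT mice it read 7.68, 7.79, 8.09 and 8.003 on CD8+ arrays and 6.22, 5.80, 6.35 and 6.16 on CD8- arrays. The subsets were more than a log2 unit apart in each genotype. The step was 2.15 ± 0.15 in Mst1/2-KO mice (adjusted p = 8.65e-09, limma) and 1.76 ± 0.15 in WT mice (adjusted p = 1.10e-07, limma).

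Il1b ran the other way. It read 11.11, 11.42, 10.82 and 10.83 on CD8+ arrays and 11.90, 11.96, 11.75 and 11.48 on CD8- arrays of Mst1/2-KO mice, a change of -0.73 ± 0.19 (adjusted p = 0.00872, limma). In WT mice it read 11.87, 11.21, 10.87 and 11.07 on CD8+ arrays and 12.25, 12.04, 11.83 and 11.85 on CD8- arrays, a change of -0.74 ± 0.19 (adjusted p = 0.0072, limma). The Mst1/2-KO subsets lay apart, and in WT mice only CD8+ replicate 1 reached into the CD8- range.

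Ebi3 read 8.56, 8.62, 8.46 and 8.71 on CD8+ arrays and 8.35, 8.02, 8.35 and 8.17 on CD8- arrays of Mst1/2-KO mice, a step of 0.36 ± 0.10 (adjusted p = 0.0143, limma). In WT mice it read 8.40, 8.75, 8.72 and 8.84 on CD8+ arrays and 8.22, 8.27, 8.19 and 8.36 on CD8- arrays, a step of 0.42 ± 0.10 (adjusted p = 0.00495, limma). The subsets lay apart in both genotypes, by a narrow gap in WT mice. The second Ebi3 probe set did not pass in either genotype, at 0.06 ± 0.09 in Mst1/2-KO mice (adjusted p = 0.803 over 41155 probe sets) and 0.23 ± 0.09 in WT mice (adjusted p = 0.111). The Mst1/2-KO call was also lost without CD8- replicate 2 (adjusted p = 0.0557).

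**Figure D3:**
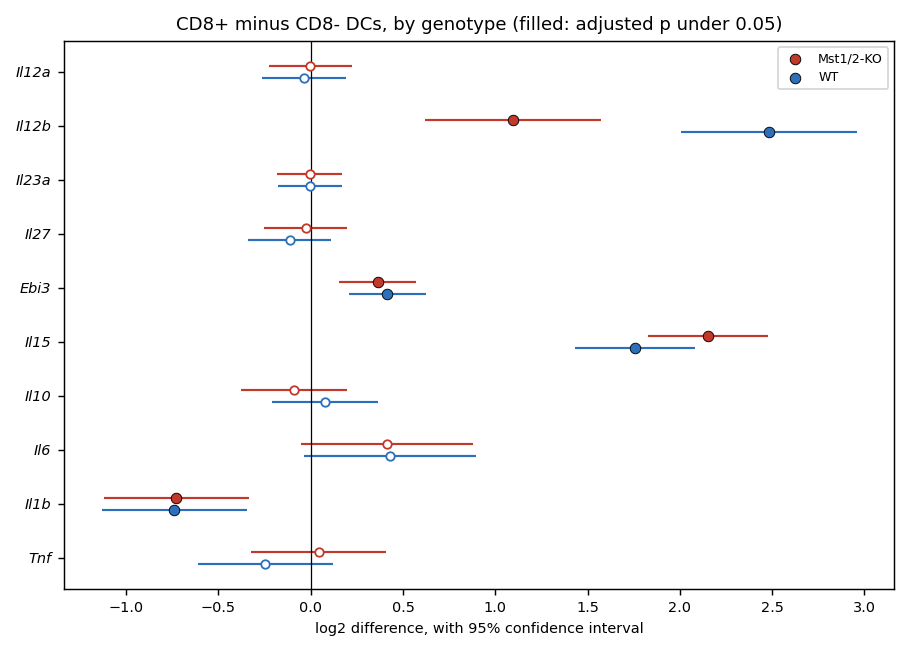
Log2 difference, CD8+ minus CD8- DCs, of each cytokine gene with its 95% confidence interval in Mst1/2-KO (red) and WT (blue) mice, where filled points mark an adjusted p under 0.05. Il15 is at 2.15 and 1.76, Il12b at 1.10 and 2.48, and Il1b at -0.73 and -0.74.

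Il6 differed between the subsets by 0.41 ± 0.22 in Mst1/2-KO mice and 0.43 ± 0.22 in WT mice, with overlapping groups, and was not called (adjusted p = 0.238 and 0.212, limma). The subsets also overlapped for Il12a, Il23a, Il27, Il10 and Tnf, with differences from -0.09 (Il10) to 0.04 (Tnf) in Mst1/2-KO mice and from -0.25 (Tnf) to 0.08 (Il10) in WT mice. Markers of other cells differed between the subsets as well. The 7 measured macrophage and monocyte markers averaged 7.20 to 7.72 on CD8+ and 8.83 to 9.10 on CD8- arrays of Mst1/2-KO mice. All 7 were lower in CD8+ DCs, with 5 called. In WT mice they averaged 7.50 to 7.55 on CD8+ and 8.55 to 8.99 on CD8- arrays, with all 7 lower and 4 called. All 5 T cell markers were lower in CD8+ DCs in each genotype. The plasmacytoid DC markers averaged 7.27 to 7.39 on CD8+ and 8.68 to 9.10 on CD8- arrays of Mst1/2-KO mice, with 4 of 5 called lower in CD8+ DCs. In WT mice they averaged 7.16 to 7.34 on CD8+ and 7.33 to 8.02 on CD8- arrays, with 4 of 5 lower and 2 called. The part of these markers in the subset differences of Il1b and the other members was not tested.

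Across the 16 sorted arrays, Il12b followed Nudt9 (Pearson r = 0.96), Cblb (0.94) and Rps26 (0.94) most closely. The genes most like Il15 were Rgs10 (0.99), Rtl8c (0.99) and Ppp2r3c (0.98), and those most like Tnf were Gdap10 (0.93), Aim2 (0.91) and M1ap (0.89). Il1b ran with Zfp36 (0.97), Snhg15 (0.97) and Nr4a1 (0.96), and Ebi3 with Tmem42 (0.94), Tor3a (0.93) and Tomm34 (0.92). These correlations are over 16 arrays in 4 groups, so the group means carry most of each. Among the members, Ebi3 and Il15 correlated at 0.87 over the 16 arrays and at 0.46 after the group means were removed, and for Il12b and Il15 these values were 0.75 and -0.32.

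Of 87 further genes of the cytokine pathways, 80 were measured. In CD8+ DCs 6 of them were called lower and 0 called higher in Mst1/2-KO, against 0.654% lower and 0.234% higher among all genes. Among the receptors of the members, Tnfrsf1b, a TNF receptor, fell by 0.75 ± 0.12 (adjusted p = 0.00366, limma) and Il6st, the shared signalling chain of the IL-6 and IL-27 receptors, fell by 0.47 ± 0.08, 2 of 15 measured. Cd40, the receptor that anti-CD40 engages, fell by 0.62 ± 0.11 and was the only one of the 8 genes of CD40 and p38 input called. Bcl3, an atypical IkB protein, fell by 0.79 ± 0.14, and Adam17, the protease that releases TNF from the membrane, fell by 0.39 ± 0.08. Of the 27 other cytokines measured, 1 was called, namely Ltb, the membrane lymphotoxin chain, which averaged 5.59 ± 0.30 on Mst1/2-KO and 6.92 ± 0.16 on WT CD8+ arrays.

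In CD8- DCs 4 of the 80 were called higher and 6 called lower in Mst1/2-KO, against 3.9% higher and 2.79% lower among all genes. Tnfrsf1b fell by 0.42 ± 0.12, Cd40 by 0.41 ± 0.11 and Ltb by 0.67 ± 0.16, so these 3 were called in both subsets. Il10rb, a chain of the IL-10 receptor, fell by 0.37 ± 0.10, the kinase gene Jak2 by 0.26 ± 0.07 and Irf1, an interferon regulatory factor, by 0.58 ± 0.13. Irf8, a transcription factor of CD8+ and plasmacytoid DCs that is also on the CD8+ marker list, rose by 0.91 ± 0.23, beside the marker shifts given above. Pycard, the inflammasome adaptor, rose by 0.47 ± 0.10, Myd88, the adaptor of the IL-1 receptor, by 0.31 ± 0.08 and Map2k3, a kinase that activates p38, by 0.27 ± 0.08. In total DCs 1 of the 80 was called, against 0.848% of all genes. It was Il15ra, which presents IL-15 to other cells and averaged 6.14 ± 0.22 on Mst1/2-KO and 6.86 ± 0.11 on WT arrays (adjusted p = 0.0293, limma). For the difference between the subsets 0 of the 80 were called by limma, against 0.559% of all genes. At an unadjusted p under 0.05 there were 13, against 9.15% of all genes.

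Between CD8+ and CD8- DCs 10 of the 80 were called higher and 36 lower in Mst1/2-KO mice, and 8 were called higher and 33 lower in WT mice. Among all genes 9.93% were called higher and 9.3% lower in Mst1/2-KO mice, and 11% and 10% in WT mice. Stat4, which transmits the IL-12 signal, averaged 5.81 ± 0.64 on CD8+ and 10.18 ± 0.28 on CD8- arrays of WT mice, a difference of -4.38 ± 0.25, beside -4.44 ± 0.25 in Mst1/2-KO mice. Tyk2, a kinase of the IL-12 receptor, differed by 0.56 ± 0.10 in Mst1/2-KO and 0.91 ± 0.10 in WT mice, and Stat5b by -0.86 ± 0.09 in Mst1/2-KO and -0.53 ± 0.09 in WT mice. Of the same list Stat5a differed by -0.82 ± 0.13 in Mst1/2-KO mice and Jak2 by -0.46 ± 0.07 in WT mice. Here and below, a gene named for 1 genotype only was among the up to 4 largest called changes of its list there. Its call in the other genotype is not given, so such naming does not show that the genotypes differed. Among the receptors, Il12rb2, a chain of the IL-12 receptor, differed by -1.07 ± 0.10 in WT mice, Il6st by -1.04 ± 0.08 in Mst1/2-KO mice, and Tnfrsf1b by -1.44 ± 0.12 in Mst1/2-KO and -1.11 ± 0.12 in WT mice. Il1r2, the decoy receptor of IL-1, differed by -3.40 ± 0.52 in Mst1/2-KO and -3.46 ± 0.52 in WT mice. Il1rn, the IL-1 receptor antagonist, differed by -2.11 ± 0.14 in Mst1/2-KO and -2.19 ± 0.14 in WT mice. Casp1, the protease that matures IL-1 beta, differed by -1.45 ± 0.09 in Mst1/2-KO and -1.51 ± 0.09 in WT mice. Nlrp3, an inflammasome sensor, differed by -0.64 ± 0.19 in Mst1/2-KO and -1.23 ± 0.19 in WT mice, and Casp8, a protease of cell death, by -0.77 ± 0.09 in Mst1/2-KO and -0.58 ± 0.09 in WT mice. Il2rb, a receptor chain for IL-15, differed by -2.75 ± 0.22 in Mst1/2-KO and -2.69 ± 0.22 in WT mice, so that Il15 and this chain were higher in opposite subsets. Of the 5 NK cell markers, 5 in Mst1/2-KO and 4 in WT mice were lower in CD8+ DCs, with 2 and 4 called. The part of these and of the T cell markers above in Stat4 and Il2rb was not tested.

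Among the regulators, Irf8 differed by 1.96 ± 0.23 in Mst1/2-KO and 2.77 ± 0.23 in WT mice, and Bcl3 by -2.97 ± 0.14 in Mst1/2-KO and -2.07 ± 0.14 in WT mice. Cebpb, the gene of C/EBP beta, differed by -1.20 ± 0.10 in Mst1/2-KO and -1.14 ± 0.10 in WT mice, and Nfkbiz, another atypical IkB protein, by -1.43 ± 0.18 in Mst1/2-KO and -1.03 ± 0.18 in WT mice. Map2k6, a kinase that activates p38, differed by 1.66 ± 0.16 in Mst1/2-KO and 1.12 ± 0.16 in WT mice, and Mapk11, which encodes p38 beta, by -1.27 ± 0.14 in Mst1/2-KO and -1.31 ± 0.14 in WT mice. Dusp1, a phosphatase that switches p38 off, differed by -0.46 ± 0.16 in Mst1/2-KO and -0.58 ± 0.16 in WT mice. Mapkapk2, a kinase downstream of p38, differed by -0.50 ± 0.11 in Mst1/2-KO mice, and Mapk14 by -0.46 ± 0.08 in Mst1/2-KO and -0.62 ± 0.08 in WT mice.

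Among the other cytokines, Ltb differed between the subsets by -3.31 ± 0.16 in Mst1/2-KO and -2.64 ± 0.16 in WT mice. Osm, the gene of oncostatin M, differed by -1.44 ± 0.16 in Mst1/2-KO and -1.68 ± 0.16 in WT mice, and Lif, of the same cytokine family, by 1.12 ± 0.25 in Mst1/2-KO and 1.24 ± 0.25 in WT mice. Il18, a cytokine that acts with IL-12 on interferon-gamma, differed by 1.14 ± 0.27 in Mst1/2-KO mice, and Ifng, the gene of interferon-gamma, by -0.90 ± 0.25 in WT mice.

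In experiment 1, which set arrays labelled Rag1-KO p38-KO against Rag1-KO arrays after anti-CD40, 0 of the 22180 genes were called by limma, and so 0 of 10 members, a background of 0%. At an unadjusted p under 0.05 there were 1866 genes, or 8.41%, and 3 members, Il12b, Il6 and Il10. Mapk14, which encodes p38 alpha, was not lower in the arrays labelled Rag1-KO p38-KO, at 8.47 ± 0.08 against 8.24 ± 0.26 in Rag1-KO arrays. Where its probes lie relative to any deletion is not known, so this probe set does not check the label.

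Il12b read 6.99, 6.77 and 6.93 on the arrays labelled Rag1-KO p38-KO, against 8.22, 8.22, 9.47 and 9.10 on the Rag1-KO arrays. The groups lay more than a log2 unit apart, with a difference of -1.86 ± 0.33 (adjusted p = 0.34, limma). Il6 read 3.50, 2.65 and 3.75 on the arrays labelled Rag1-KO p38-KO, against 4.95, 4.78, 6.10 and 6.64 on the Rag1-KO arrays, also apart, with a difference of -2.32 ± 0.52 (adjusted p = 0.396, limma). Il10 read 4.24, 3.74 and 3.94 on the arrays labelled Rag1-KO p38-KO, against 4.94, 5.20, 4.29 and 4.60 on the Rag1-KO arrays. Its groups were separated by a small gap, with a difference of -0.78 ± 0.23 (adjusted p = 0.508, limma). The Il6 values on the arrays labelled Rag1-KO p38-KO, and Il10 at 3.74 and 3.94, lay below the lowest array median of 4.11. At such dim values the sizes of these differences are uncertain.

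Il15 read 6.68, 6.46 and 6.58 on the arrays labelled Rag1-KO p38-KO, against 6.70, 6.65, 7.81 and 7.54 on the Rag1-KO arrays, with a difference of -0.60 ± 0.30 (adjusted p = 0.606, limma). Its groups overlapped through Rag1-KO replicate 2. The groups of 3 members lay apart and lower in the arrays labelled Rag1-KO p38-KO, against 3.6% of all genes. Of the 10 members 9 were below 0, with a median of -0.50, against 0.001 for all genes.

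The Rag1-KO arrays of experiment 1 were not alike. Over all genes, the deviations from the group mean correlated at 0.38 between replicates 1 and 2 and at 0.17 between replicates 3 and 4, and from -0.71 to -0.58 across these pairs. Both of replicates 3 and 4 lay above both of 1 and 2 for 6 of the 10 members, Il12b, Il27, Ebi3, Il15, Il6 and Tnf, and for 19.3% of all genes. Il27 read 5.73, 5.63 and 5.72 on the arrays labelled Rag1-KO p38-KO, against 5.72, 5.83, 8.06 and 6.94 on the Rag1-KO arrays, so only replicates 3 and 4 were raised. Tnf spanned 9.26 to 9.49 on the arrays labelled Rag1-KO p38-KO and read 9.24, 9.66, 10.25 and 9.81 on the Rag1-KO arrays. Ebi3 spanned 8.09 to 8.74 on the arrays labelled Rag1-KO p38-KO and read 7.73, 8.19, 9.11 and 8.80 on the Rag1-KO arrays, so the groups overlapped for both genes. The groups also overlapped for Il12a, Il23a and Il1b, and Il1b averaged 11.52 ± 0.08 on the arrays labelled Rag1-KO p38-KO and 11.51 ± 0.15 on the Rag1-KO arrays.

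Without Rag1-KO replicates 1 and 2 the Il12b difference was -2.39 ± 0.14 and passed the test (adjusted p = 0.0298, limma), with 85 genes called in all. Without replicates 3 and 4 it was -1.32 ± 0.08 (adjusted p = 0.234), and 0 genes were called. The Il15 difference was -1.10 ± 0.12 without replicates 1 and 2 and -0.10 ± 0.08 without replicates 3 and 4. For Il6 these differences were -3.07 ± 0.39 and -1.56 ± 0.36. Both of these fits were chosen after the values were seen. Replicates 1 and 2 read nearest to the arrays labelled Rag1-KO p38-KO for Il12b and Il6, so the call without them is no support.

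Neutrophil markers moved alongside. Their mean over 8 genes was 5.31, 5.09 and 3.93 on the arrays labelled Rag1-KO p38-KO, against 5.96, 5.75, 6.76 and 5.85 on the Rag1-KO arrays, with 8 of 8 below 0, 6 at an unadjusted p under 0.05 and 0 called by limma. Their part in the lower Il12b and Il6 was not tested. The CD8+ DC markers averaged 9.45 to 9.86 on the arrays labelled Rag1-KO p38-KO and 9.69 to 10.12 on the Rag1-KO arrays. The CD8- DC markers averaged 7.44 to 7.79 on the arrays labelled Rag1-KO p38-KO and 6.81 to 7.73 on the Rag1-KO arrays. Macrophage and monocyte markers averaged 7.75 to 8.22 on the former and 8.12 to 8.50 on the latter. Of these 7 markers 5 were below 0, with 2 at an unadjusted p under 0.05 (limma). NK cell markers averaged 4.14 to 4.74 on the former and 4.60 to 5.13 on the latter, with 4 of 5 below 0. The part of these markers was not tested either.

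**Figure D4:**
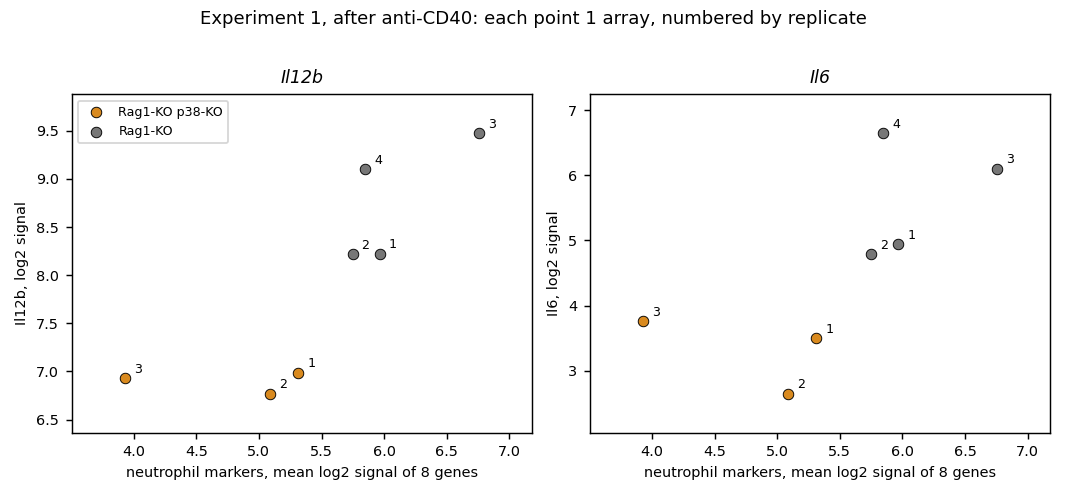
Log2 signal of Il12b (left, vertical axis) and Il6 (right, vertical axis) against the mean log2 signal of the 8 neutrophil markers (horizontal axis) in experiment 1. Each point is 1 array with its replicate number, for arrays labelled Rag1-KO p38-KO (orange) and Rag1-KO arrays (grey). The groups lie apart on all 3 measures, and within a group the arrays do not line up in a single order.

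In experiment 2 each comparison rests on a lone array, which was assumed to vary like the other groups of experiments 1 and 2. After anti-CD40, 0 of 10 members were called against the non-stimulated Rag1-KO array, where 0.0361% of all genes were. At an unadjusted p under 0.05 there were 3, Il12a, Ebi3 and Il1b, against 13.1% of all genes (limma). Ebi3 read 9.21 and 9.13 on the stimulated arrays and 7.95 on the non-stimulated array, a difference of 1.22 ± 0.49 (adjusted p = 0.337, limma). Il15 read 7.10 and 7.37 on the stimulated arrays and 6.37 on the non-stimulated array, a difference of 0.86 ± 0.44 (adjusted p = 0.458). Both genes read higher on each stimulated array.

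Il1b read 11.87 and 11.90 on the stimulated arrays and 11.52 on the non-stimulated array, a difference of 0.36 ± 0.14 (adjusted p = 0.323, limma). Il12a read 3.28 and 3.35 on the stimulated arrays and 4.12 on the non-stimulated array, with all 3 values below the array median (-0.80 ± 0.30, adjusted p = 0.312). Il12b read 8.07 and 8.94 on the stimulated arrays and 7.58 on the non-stimulated array, and Il6 read 5.32 and 5.88 on the stimulated arrays and 4.41 on the non-stimulated array. These 2 genes were also higher on each stimulated array, and neither was called. Of the 10 members 7 were higher and 2 lower on both stimulated arrays than on the lone array. The share of all genes apart in this way was not computed, and against a lone array such a separation shows little. The differences of Il23a, Il27, Il10 and Tnf ran from -0.42 (Il10) to 0.37 (Tnf), none of them called. The neutrophil marker mean was 6.61 and 6.95 on the stimulated arrays and 5.94 on the non-stimulated array, and its part was not tested.

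Set against the lone WT array after anti-CD40, 0 of 10 members were called in Rag1-KO DCs, where 0.365% of all genes were. At an unadjusted p under 0.05 it was 1, Il1b, against 14% of all genes (limma). Il1b read 11.87 and 11.90 on the Rag1-KO arrays and 11.39 on the WT array, a difference of 0.49 ± 0.14 (adjusted p = 0.178, limma). Il6 read 5.32 and 5.88 on the Rag1-KO arrays and 4.44 on the WT array, and Il12b read 8.07 and 8.94 on the Rag1-KO arrays and 7.995 on the WT array. The Il12b values of the Rag1-KO arrays themselves differed by more than the lower of them differed from WT. The differences of Il12a, Il23a, Il27, Ebi3, Il15, Il10 and Tnf ran from -0.50 (Il10) to 0.50 (Ebi3), none of them called. The 2 comparisons of experiment 2 share the stimulated Rag1-KO arrays, and the neutrophil marker mean was 5.23 on the WT array. The 5 measured B cell markers averaged 4.38 and 4.31 on the Rag1-KO arrays and 5.25 on the WT array, with 2 called lower, and 1 of 5 T cell markers was called lower. The NK cell markers averaged 5.44 and 5.24 on the Rag1-KO arrays and 4.17 on the WT array, with 5 of 5 above 0 (median 1.29), 3 at an unadjusted p under 0.05 and 0 called by limma. The part of these markers was not tested. Of the 80 pathway genes measured, 0 were called by limma in experiments 1 and 2. At an unadjusted p under 0.05 there were 21 of the 80 in experiment 1, against 8.41% of all genes. In experiment 2 there were 11 for anti-CD40, against 13.1% of all genes, and 14 for Rag1-KO against WT, against 14%.

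**Figure D5:**
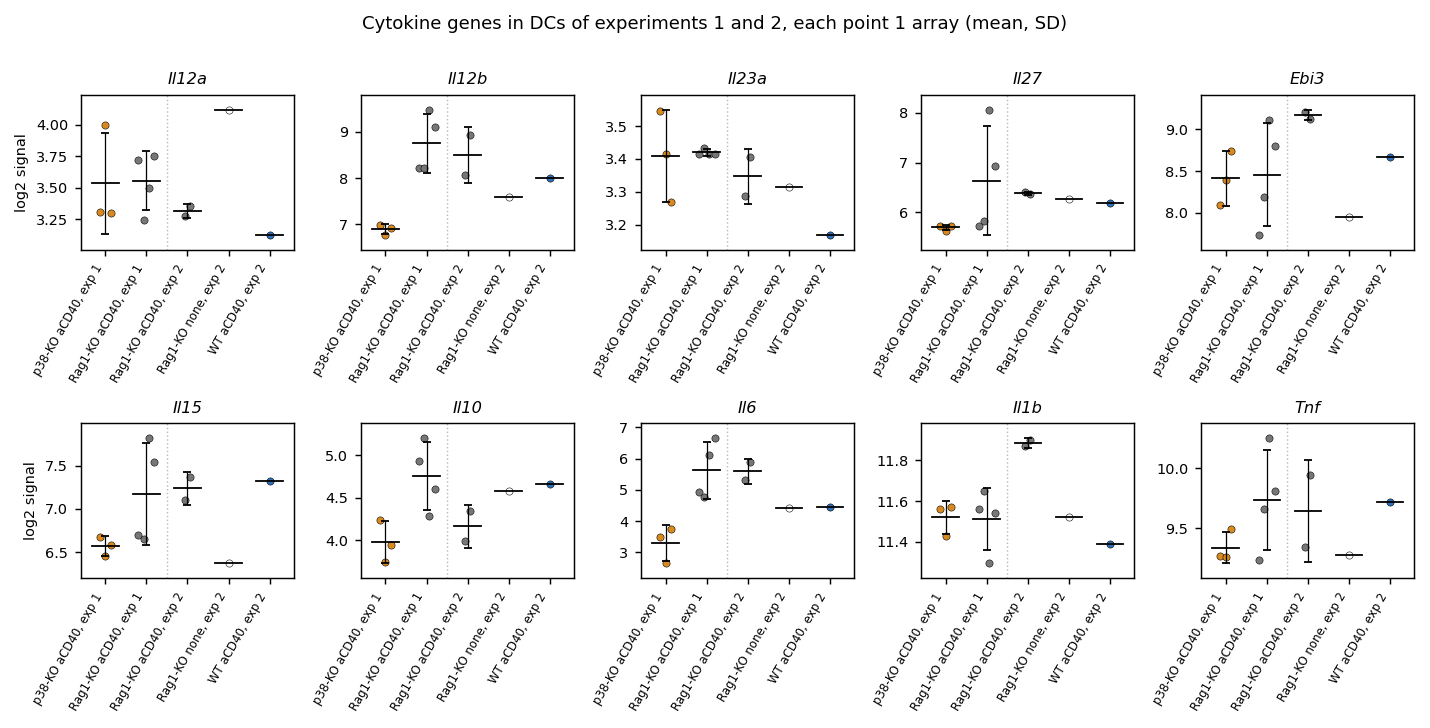
Log2 signal of the 10 cytokine genes (vertical axes) on each array of experiment 1 (left of the dotted line) and experiment 2 (right of it), with the group mean as a line and, for groups of more than 1 array, the SD as a bar. The groups are arrays labelled Rag1-KO p38-KO (orange), Rag1-KO after anti-CD40 (grey), non-stimulated Rag1-KO (white) and WT after anti-CD40 (blue). Il12b, Il6 and Il10 are the genes whose arrays labelled Rag1-KO p38-KO all lie below the Rag1-KO arrays of experiment 1.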

How the data were processed

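The deposited table holds log2 values of 41155 probe sets on 34 arrays, normalized by the authors, with RMA and Partek 6.6 named in the submitters' processing notes. Per the labels, RNA of FACS-sorted spleen cells was amplified and biotin-labelled with NuGEN WTA Pico v2 before hybridisation. Within an experiment label all probe sets shared their digits beyond the fifth decimal (tolerance 0.002), against 0.25% over all arrays, so each probe set carries a constant for its label and levels are set side by side only within a label. Of the 23521 probe sets annotated to exactly 1 symbol, that with the highest mean over all arrays stood for each gene, which gave 22180 genes. The genome build of the array design is not given in the sources used here.

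Each comparison was a contrast of group means on the log2 scale, fitted with lmFit and eBayes of limma 3.58.1 (R 4.3.3). Its p-values were adjusted by Benjamini-Hochberg over all 22180 genes, with 0.05 as the threshold. The 16 sorted-subset arrays shared a fit, the 7 total DC arrays and the 7 arrays of experiment 1 had their own, and the 2 comparisons of experiment 2 took their spread from the 11 arrays of experiments 1 and 2. The fits were tested on simulated data in which the genes varied independently of each other. Such data lack the shared deviations seen among the Rag1-KO arrays of experiment 1, so they do not check the fits against these.

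The members, the pathway and marker lists and the tests were chosen with earlier results of these data known. The rule named all 10 members in every comparison, where a change with its SE is printed if its unadjusted p was under 0.1 and most others are given as ranges. Named from each pathway list are up to 4 called genes with the largest change, and for each called member the 3 genes with the highest correlation over the sorted-DC arrays, predicted genes skipped. Deviations from the group mean correlated between same-numbered WT CD8+ and CD8- arrays (r 0.13 to 0.34). This met the rule for pairs, that every same-numbered pair exceed 0.1. The main fits held no pairing term, so the SEs and p-values printed for them are unpaired. Replicate numbers entered only as the block among the alternatives. By the same rule they did not pair arrays of different genotypes. Alternatives covered leaving out each array, the replicate block, quantile and loess normalization, the probe set chosen, all probe sets, brighter genes, the prior, array weights and the arrays behind the spread.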

Additional observations from a re-analysis of the deposited data

Results flagged for a closer look

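In 60 groups of 4 arrays, 5 held an array far from the others of its group, by the gap to its nearest neighbour over the group's range, and chance alone gives about 1 in 20 such groups. Il12b on Mst1/2-KO CD8- replicate 4 read 6.23, below its group. Il23a on Mst1/2-KO CD8+ replicate 2 read 3.20, below its group, and Il23a on Rag1-KO replicate 2 of experiment 1 read 3.43, above 3 arrays that share a single value of 3.42. With such a tie at a dim level the gap is small, and the rate of 1 in 20 does not apply. Il27 on WT CD8- replicate 1 read 6.01, below its group, and Il27 on WT total replicate 2 read 6.45, above its group.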

How the results depend on the processing

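The Il12b calls in CD8+ DCs and the Tnf call in CD8- DCs held in all 25 alternatives run for each, with changes from -1.93 to -1.60 and from -1.12 to -0.88. Without each array in turn, the genes called numbered 114 to 221 in CD8+ DCs (1 to 2 of them members), 918 to 1609 in CD8- DCs (1 member each time), 79 to 259 for the difference of the subsets (0 to 1), 3807 to 4405 between Mst1/2-KO subsets (3 to 4), 4033 to 4691 between WT subsets (4 each time) and 39 to 169 in total DCs (0 to 1). They numbered 0 in experiment 1, 1 to 136 for anti-CD40 and 44 to 234 for Rag1-KO against WT, with 0 members called in these 3 comparisons.

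In CD8+ DCs the 8 arrays alone gave 123 genes against 197. For the difference of the subsets, 124 genes became 63 with all probe sets and 222 with array weights, and among genes above the median gene Il12b was called (1 member, adjusted p = 0.0459, limma). In total DCs 188 genes became 296 above the median gene, 340 with a trend and robust prior and 29 with all probe sets, where 0 members were called (Il12b adjusted p = 0.0906). The anti-CD40 comparison gave 8 genes, and 1 above the median gene, 17 with a trend and robust prior, 4 with array weights and 0 with the spread of fewer arrays. The Rag1-KO against WT comparison gave 81 genes, and 4 above the median gene, 243 with all probe sets, 44 with array weights and 16 with the spread of fewer arrays. Without both Rag1-KO arrays 3 and 4, or 1 and 2, of experiment 1, the anti-CD40 comparison gave 2 and 2 genes and the Rag1-KO against WT comparison 34 and 36. Without arrays 1 and 2 the experiment 1 comparison gave 85 genes and 1 member. The fits without these arrays were chosen after the values were seen. Arrays 1 and 2 read nearest to the arrays labelled Rag1-KO p38-KO for Il12b and Il6, so that call is no support. With the lowest-mean probe set Ebi3 was not called between subsets (0.23 in WT, adjusted p = 0.0798, and 0.06 in Mst1/2-KO mice, adjusted p = 0.763, limma). The cause was not tested, apart from the number of genes or arrays that each setting changes.

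With the replicate number as a block, 273 genes and 2 members were called in CD8+ DCs, Tnf joining Il12b (adjusted p = 0.0326, limma), 211 genes for the difference of the subsets and 108 in total DCs. The block changed no other member's call. Deviations of same-numbered arrays of Mst1/2-KO and WT mice correlated at -0.07 to 0.13, so the numbers do not pair them. Between Mst1/2-KO CD8+ and CD8- arrays they correlated at 0.09 to 0.21, with 4 of 4 arrays closest to their own number, and between the 2 groups of experiment 1 at 0.09 to 0.16, with 3 of 3, hints from the data and not from the design. Of the 61 member changes with an unadjusted p of 0.1 or more, 0 passed in any of 1282 settings, and 103 of these settings turned the sign, by at most 0.45 in size. The number of arrays limits the precision, and Il12a and Il23a were dim throughout.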
